A study of Oryza sativa Japonica Group with 8 samples.

Results

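The genes described are 10 WRKY transcription factors of rice that are known from work on defence and stress: WRKY13, WRKY24, WRKY28, WRKY45, WRKY53, WRKY62, WRKY70, WRKY71, WRKY72 and WRKY76. They were taken by RAP locus identifier from the 38726 features of a count table, and all 10 identifiers were present. The names are the published names under which the genes were listed, since the count table holds identifiers alone. WRKY13 (Os01g0750100) and WRKY24 (Os01g0826400) lie on chromosome 1, WRKY71 (Os02g0181300) on chromosome 2, and WRKY45 (Os05g0322900), WRKY53 (Os05g0343400) and WRKY70 (Os05g0474800) on chromosome 5. WRKY28 (Os06g0649000) lies on chromosome 6, WRKY62 (Os09g0417800) and WRKY76 (Os09g0417600) on chromosome 9, and WRKY72 (Os11g0490900) on chromosome 11, as read from the identifiers.

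The libraries came from pistils, the female organs of the flower, of untreated wild-type Nipponbare (a japonica cultivar) sampled at heading. There were 3 groups: RNA of PI-stained, sorted nuclei from pistils (n = 2), whole-cell RNA from the upper part (n = 3) and from the lower part (n = 3). Plants had been kept in climate chambers, and the labels name no pathogen or other stress treatment. The values are therefore levels without a named treatment. Pistils were divided or their nuclei sorted before RNA was measured, and any effect of this handling was not tested. The labels name neither the point at which pistils were divided nor the plants behind each replicate, so the p-values rest on the spread among libraries, which may be technical.

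WRKY proteins bind W-box elements in promoters through a conserved domain that contains the WRKY motif. In rice leaves many of them are induced by pathogens, and they act in a network in which some members promote resistance and others restrain it. WRKY45 is required for salicylic-acid-pathway resistance to blast and is induced by benzothiadiazole, and WRKY13 promotes resistance to bacterial blight and blast when overexpressed. WRKY53, WRKY24 and WRKY70 are related group I factors; WRKY53 is a target of a defence MAP kinase cascade and also acts in brassinosteroid signalling, and WRKY70 favours defence against stem borers over gibberellin-driven growth. WRKY28, WRKY62, WRKY71 and WRKY76 form group IIa, several of whose members restrain defence when overexpressed, and WRKY72 lowers jasmonate synthesis and resistance to bacterial blight.

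Total counts were 10857036 and 9268151 in nuclei replicates 1 and 2, and lay between 24796307 and 35518142 in the whole-cell libraries. Lower replicate 3 stood apart from its part: across genes it averaged a Spearman correlation of 0.878 with its fellow lower libraries and of 0.919 with the upper ones, while each of the other 5 whole-cell libraries was closer to its own part. Where the linear fold change of a WRKY gene moved by over 1.5 times without this library, its log2 fold change is given with and without the library. Levels are in CPM, the usual count unit relative to the library total, with totals scaled by TMM over all 8 libraries. Gene lengths of the annotation used for counting were not available for scaling, so CPM is compared between libraries for 1 gene and not between genes. Fewer cells of a type and less RNA per cell cannot be told apart in these bulk libraries.

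**Figure D1:**
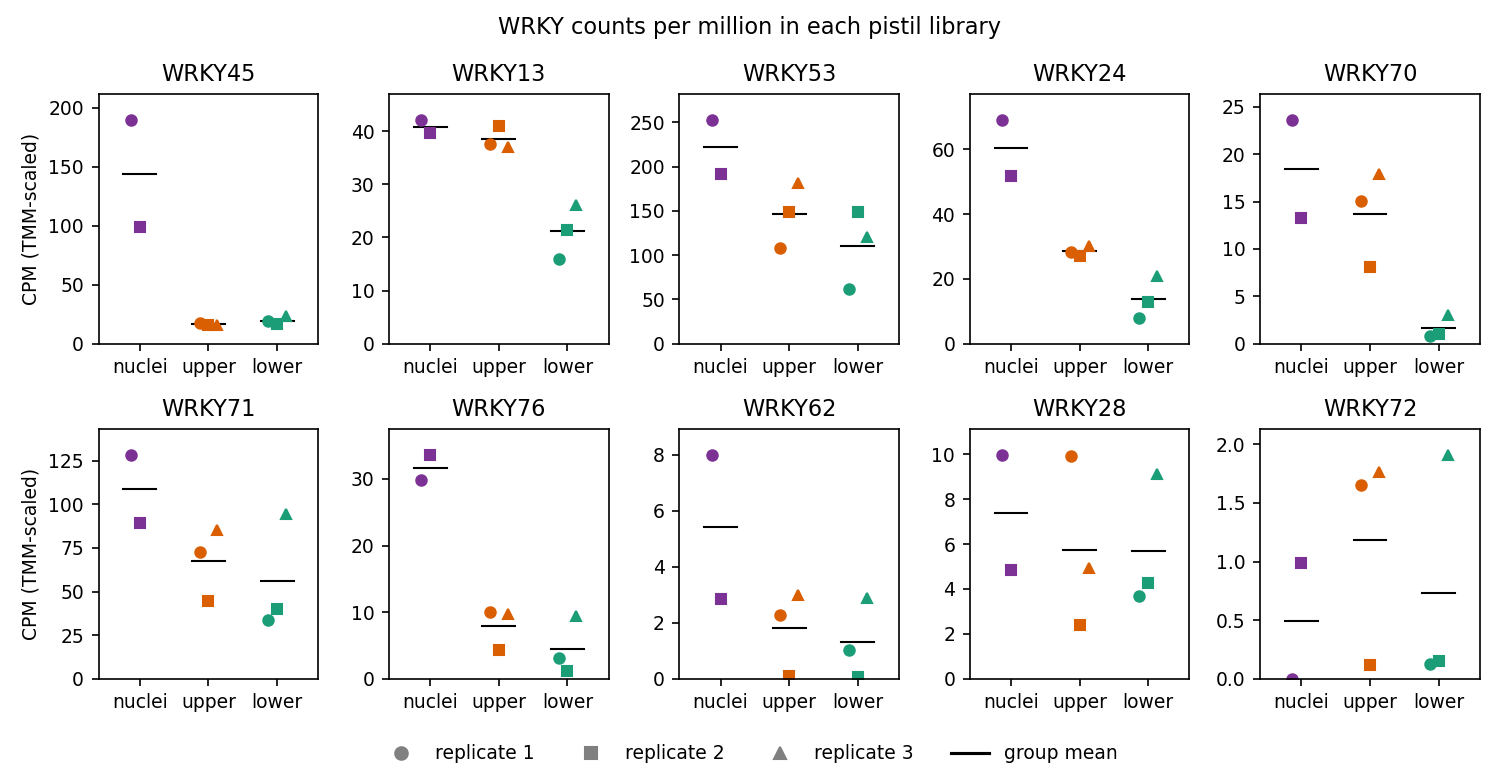
CPM of each WRKY gene (vertical axis, linear from 0, TMM-scaled) in nuclei, upper and lower libraries (horizontal axis). Points are single libraries with the replicate number as the symbol, and the line is the group mean. WRKY45 was at 98.8 and 189 CPM in nuclei and at 15.5 to 23.3 CPM in whole cells, and WRKY70 was at 8.15 to 17.9 CPM in the upper part and at 0.846 to 3.05 CPM in the lower part.

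The comparison of the parts asked whether the WRKY transcripts were spread evenly along the pistil. WRKY70 had the largest difference of the 10, about 8.49-fold by the fitted ratio without a block, and the 2 parts did not overlap. WRKY13 and WRKY24 had smaller differences in the same direction, also without overlap. WRKY45 was the only 1 with a negative fitted log2 fold change, and its 95% interval ran from -0.88 to 0.40 on the log2 scale.

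WRKY70 had 15.0, 8.15 and 17.9 CPM in upper replicates 1, 2 and 3, against 0.846, 0.987 and 3.05 CPM in the same lower replicates. The lowest upper library lay above the highest lower library, and the highest lower library was replicate 3. The means were 13.7 ± 5.01 CPM for upper and 1.63 ± 1.23 CPM for lower libraries (SD over 3 libraries), and the log2 fold change of upper over lower was 3.09 (SE 0.63, 95% interval 1.62 to 4.55). With Benjamini-Hochberg adjustment over 29848 genes, edgeR's quasi-likelihood test gave an adjusted p of 0.0878, so WRKY70 was not called at an adjusted p under 0.05 and a 2-fold change. Upper and lower libraries with the same number deviated together (the check is given with the processing), and with the replicate number as a block the log2 fold change was 3.24 (SE 0.40), the edgeR adjusted p was 0.0164, and WRKY70 was called higher in the upper part. All 3 pairs pointed the same way, with CPM ratios of upper over lower of 17.7, 8.25 and 5.88. The blocked call held without pair 1 (log2 fold change 2.84, adjusted p = 0.0058 by edgeR) and without pair 3 (3.55, adjusted p = 0.0077 by edgeR). It was lost without pair 2 (log2 fold change 3.32, adjusted p = 0.0914 by edgeR). In that fit 0.325% of all genes were called higher and 0 lower. Without lower replicate 3 and without a block, WRKY70 was also called, with a log2 fold change of 3.91 (adjusted p = 0.0253 by edgeR).

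WRKY24 had 28.4, 27.1 and 30.1 CPM in upper replicates 1, 2 and 3, against 8.04, 12.9 and 20.8 CPM in the lower ones. The upper libraries were close together and all above the lower libraries, which were spread 2.58-fold. Its log2 fold change was 1.05 (SE 0.38; adjusted p = 0.299 by edgeR), and 1.16 with the block (SE 0.29; adjusted p = 0.0635 by edgeR), short of a call in both. It was called with the block when pair 3 was left out (log2 fold change 1.41, adjusted p = 0.0337 by edgeR), where 7.62% of all genes were called higher. It was not called without pair 1 (0.85, adjusted p = 0.0591 by edgeR) or without pair 2 (1.18, adjusted p = 0.205 by edgeR).

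WRKY13 had 37.6, 41.0 and 37.1 CPM in upper replicates 1, 2 and 3, against 16.0, 21.4 and 26.0 CPM in the lower ones. As with WRKY24, the upper libraries were tight and the lower ones were not, and the parts did not overlap. The log2 fold change was 0.89 (SE 0.28; adjusted p = 0.248 by edgeR), and 0.92 with the block (SE 0.21; adjusted p = 0.0547 by edgeR).

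WRKY53, the third group I factor, had 108, 148 and 181 CPM in the upper part and 61.7, 149 and 120 CPM in the lower part. The parts overlapped; the replicate 2 libraries were nearly equal (ratio of upper over lower 0.997), and the ratios in pairs 1 and 3 were 1.76 and 1.51. Its log2 fold change of 0.42 had a 95% interval from -0.56 to 1.40 (adjusted p = 0.648 by edgeR). For WRKY45 the upper libraries held 17.9, 15.5 and 15.9 CPM and the lower libraries 19.4, 16.4 and 23.3 CPM. Its log2 fold change was -0.24 (SE 0.27; adjusted p = 0.693 by edgeR), with ratios of upper over lower below 1 in all 3 pairs (0.925, 0.947 and 0.683).

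Among the group IIa factors, WRKY76 had 9.97, 4.28 and 9.76 CPM in the upper part, against 3.09, 1.14 and 9.41 CPM in the lower part. Pairs 1 and 2 had ratios of upper over lower of 3.22 and 3.76, whereas pair 3 was even at 1.04. The log2 fold change was 0.83 (SE 0.75; adjusted p = 0.617 by edgeR), and without lower replicate 3 it was 1.91 (SE 0.68; adjusted p = 0.141 by edgeR). WRKY71, which in rice aleurone cells represses gibberellin signalling, had 72.7, 44.6 and 85.2 CPM in the upper part and 33.8, 40.1 and 94.5 CPM in the lower part. The highest of these 6 libraries was lower replicate 3, and the log2 fold change was 0.28 (SE 0.47; adjusted p = 0.794 by edgeR), or 0.89 without that library (SE 0.39; adjusted p = 0.215 by edgeR). WRKY28 had 9.93, 2.40 and 4.93 CPM in the upper part and 3.68, 4.28 and 9.10 CPM in the lower part. The pairs disagreed, with ratios of upper over lower of 2.70, 0.560 and 0.541, and the log2 fold change was 0.03 (SE 0.62; adjusted p = 0.985 by edgeR).

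WRKY62 and WRKY72 had few counts in some libraries. WRKY62, also listed as XB10 for its interaction with the receptor kinase XA21, had 61, 4 and 66 counts in upper replicates 1, 2 and 3 and 32, 2 and 76 counts in the lower ones. Both replicate 2 libraries were low, with 0.120 CPM (upper) and 0.0506 CPM (lower), while the other 4 whole-cell libraries lay between 1.04 and 2.98 CPM. WRKY72 had 44, 4 and 39 counts in the upper replicates and 4, 6 and 50 counts in the lower replicates. The low values were in upper replicate 2 and in lower replicates 1 and 2, at up to 0.152 CPM, and the other 3 libraries had 1.65 to 1.90 CPM. The log2 fold changes were 0.45 (SE 1.33) for WRKY62 and 0.70 (SE 1.27) for WRKY72, with edgeR adjusted p-values of 0.889 and 0.807, and the intervals spanned changes of over 4-fold both ways. Without lower replicate 3 they were 1.70 (SE 1.45; adjusted p = 0.520 by edgeR) for WRKY62 and 3.04 (SE 1.23; adjusted p = 0.186 by edgeR) for WRKY72, both uncalled.

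**Figure D2:**
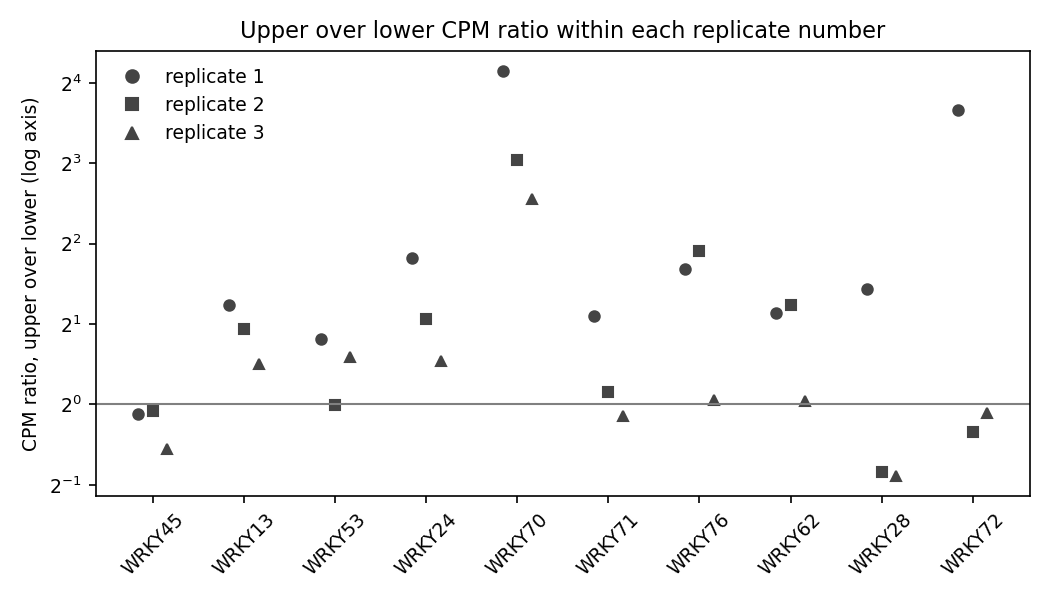
Ratio of upper over lower CPM (vertical axis, log scale) within each replicate number for the 10 WRKY genes (horizontal axis); each point is 1 pair of libraries. WRKY70, WRKY24 and WRKY13 lie above 1 in all 3 pairs, with WRKY70 at 17.7, 8.25 and 5.88, and WRKY45 lies below 1 in all 3.

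Counted over the list, edgeR called 0 of the 10 WRKY genes in either direction without a block, where the calls over all genes tested were 0.811% higher and 0.00335% lower. Unadjusted, WRKY13, WRKY24 and WRKY70 had p under 0.05, all higher in the upper part, 3 of 10 against 7.74% of all genes. DESeq2 called 1 of 10 higher, WRKY70, and 0 lower, against 4.11% and 1.38% of all genes. With the block 1 of 10 was called higher and 0 lower by edgeR, where the calls over all genes were 5.12% higher and 3.02% lower; 4 of the 10 had an unadjusted p under 0.05 and were higher, against 18.4% of all genes. The upper libraries were all above the lower ones for 3 of 10 WRKY genes, against 9.93% of all genes tested, and in 0 of 10 the opposite held, against 10.6%. The median log2 fold change of the 10 was 0.57, and that of all genes was -0.02; with the block the medians were 0.81 and -0.01. The fitted values were positive for 9 of 10 WRKY genes and for 48.9% of all genes. With the library total as the only scaling, 7 of 10 were positive, as WRKY28 and WRKY71 turned negative, and the median of all genes was -0.34.

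**Figure D3:**
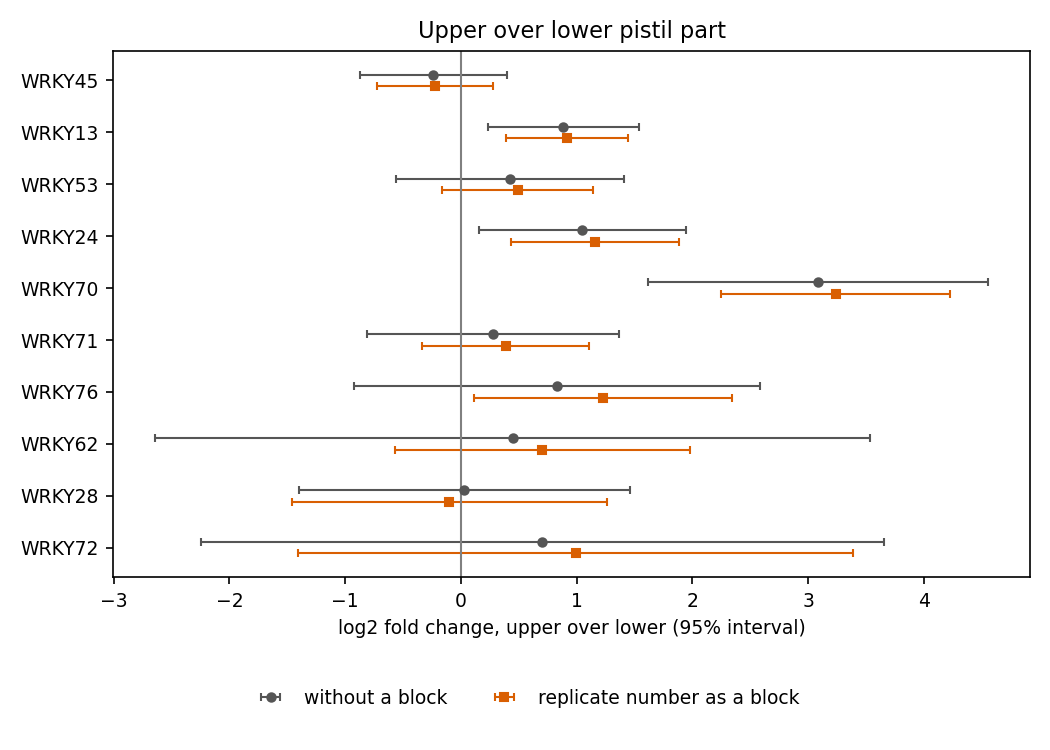
Log2 fold change of upper over lower (horizontal axis) with its 95% interval, unadjusted for multiple tests, for each WRKY gene without a block (circles) and with the replicate number as a block (squares). The WRKY70 intervals run from 1.62 to 4.55 and from 2.25 to 4.22, and those of WRKY28, WRKY45, WRKY53, WRKY62, WRKY71 and WRKY72 include 0 in both fits.

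Sorted nuclei were then compared with whole cells, as the mean of upper and lower on the log2 scale; this comparison uses the same upper and lower libraries as the one before. WRKY45 was called higher in nuclei, with a fitted ratio of 8.17-fold, and it was called against each part alone. WRKY24, WRKY70 and WRKY76 were also called higher against the mean of the parts and against the lower part, but missed a call against the upper part. No WRKY gene was called lower. Nuclei and whole-cell libraries were made with different kits (SMART-Seq and NEBNext Ultra II Directional), so kit and compartment cannot be told apart in these values.

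WRKY45 had 189 CPM in nuclei replicate 1 and 98.8 CPM in replicate 2, against a whole-cell mean of 18.1 ± 2.93 CPM (SD, n = 6). The lower of the nuclei libraries was more than 4 times the highest whole-cell library, at 23.3 CPM. The log2 fold change was 3.03 (SE 0.31; 95% interval 2.35 to 3.71; adjusted p = 0.000368 by edgeR). Against the upper part it was 3.16 (adjusted p = 0.00211 by edgeR) and against the lower part 2.90 (adjusted p = 0.00225 by edgeR). The call held when any single library was left out, with log2 fold changes from 2.48 to 3.41.

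WRKY76 had 29.8 and 33.5 CPM in nuclei, against means of 8.004 ± 3.224 CPM for upper and 4.55 ± 4.32 CPM for lower libraries (SD, n = 3 per part). Both nuclei libraries lay above all whole-cell libraries, of which the highest had 9.97 CPM. The log2 fold change was 2.42 (SE 0.61; adjusted p = 0.0200 by edgeR), and it was 2.01 against the upper part (adjusted p = 0.0785 by edgeR) and 2.83 against the lower part (adjusted p = 0.0334 by edgeR). The call was lost when either nuclei library was left out (adjusted p = 0.106 by edgeR without replicate 1 and 0.0847 without replicate 2), where the log2 fold changes were 2.50 and 2.32 and 1 nuclei library was assumed to vary like the other groups.

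WRKY24 had 68.9 and 51.8 CPM in nuclei, against means of 28.5 ± 1.46 CPM for upper and 13.9 ± 6.41 CPM for lower libraries (SD, n = 3 per part). The groups were ordered nuclei, upper, lower with no overlap between neighbours. Its log2 fold change was 1.63 (SE 0.35; adjusted p = 0.0110 by edgeR), and it was 1.11 against the upper part (adjusted p = 0.0838 by edgeR) and 2.15 against the lower part (adjusted p = 0.0106 by edgeR). Without nuclei replicate 1 the call against the mean was lost (log2 fold change 1.40, adjusted p = 0.101 by edgeR).

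WRKY70 had 23.6 and 13.2 CPM in nuclei, a range that overlapped the upper part at 8.15 to 17.9 CPM and lay above the lower part at 0.846 to 3.05 CPM. The log2 fold change was 2.00 against the mean of the parts (SE 0.52; adjusted p = 0.0229 by edgeR), 0.46 against the upper part (95% interval -0.92 to 1.84, adjusted p = 0.619 by edgeR) and 3.54 against the lower part (SE 0.65; adjusted p = 0.00825 by edgeR). The value against the mean therefore combines a small and a large difference. Without nuclei replicate 1 its call was lost (log2 fold change 1.52, adjusted p = 0.209 by edgeR).

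**Figure D4:**
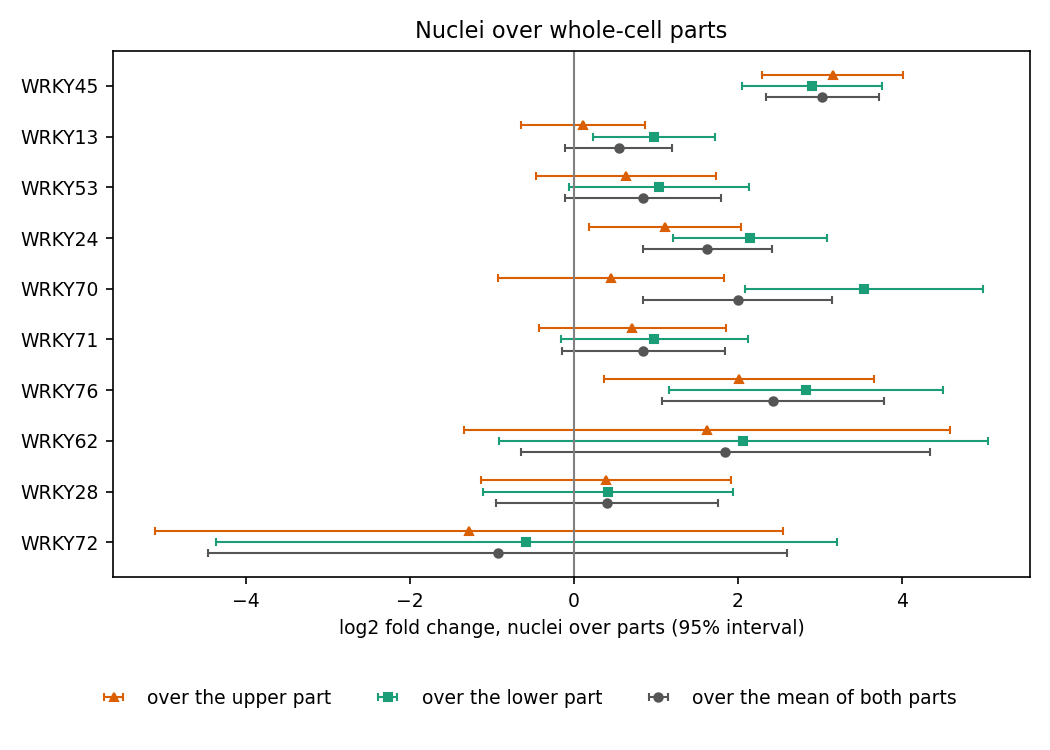
Log2 fold change of nuclei (horizontal axis) over the upper part (triangles), the lower part (squares) and the mean of both (circles) for each WRKY gene, with 95% intervals unadjusted for multiple tests. For WRKY45 the 3 values are 3.16, 2.90 and 3.03, and for WRKY70 they are 0.46, 3.54 and 2.00.

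WRKY53 had 252 and 192 CPM in nuclei, and a whole-cell mean of 128 ± 41.3 CPM (SD, n = 6), whose highest single value was 181 CPM. The nuclei libraries did not overlap them, but the log2 fold change of 0.84 (SE 0.43; adjusted p = 0.177 by edgeR) was not called. WRKY71 had 128 and 89.3 CPM in nuclei and 33.8 to 94.5 CPM in whole cells, with a log2 fold change of 0.85 (SE 0.44; adjusted p = 0.187 by edgeR). WRKY13 had 42.0 and 39.6 CPM in nuclei, inside the range of the upper part for the second library and just above it for the first. Its log2 fold change was 0.55 (SE 0.29; adjusted p = 0.199 by edgeR), with 0.11 against the upper part (adjusted p = 0.836 by edgeR) and 0.98 against the lower part (adjusted p = 0.0723 by edgeR).

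WRKY62 had 89 and 23 counts in nuclei, which is 7.97 and 2.84 CPM, against at most 2.98 CPM in whole cells. Its log2 fold change of 1.85 had a wide interval from -0.65 to 4.34 (adjusted p = 0.249 by edgeR), and it was 2.49 without lower replicate 3 and 0.91 without nuclei replicate 1, uncalled in each. WRKY28 had 9.95 and 4.82 CPM in nuclei, within or next to the whole-cell range of 2.40 to 9.93 CPM, with a log2 fold change of 0.40 (SE 0.61; adjusted p = 0.650 by edgeR). WRKY72 had 0 and 8 counts in nuclei; the 0 in replicate 1 allows up to 0.269 CPM there, by 3 counts, and replicate 2 had 0.989 CPM. The whole-cell libraries ranged from 0.120 to 1.90 CPM, and no difference of WRKY72 was called (log2 fold change -0.93, 95% interval -4.46 to 2.60, adjusted p = 0.691 by edgeR; 0.23 without lower replicate 3).

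Over the list, 4 of 10 WRKY genes were called higher in nuclei and 0 lower, where 14.1% of all 31858 genes tested were called higher and 8.76% lower. In the lower direction 0 of the 10 had an unadjusted p under 0.05 by edgeR, against 17.6% of all genes, and DESeq2 likewise called 0, against 13.9%. Against the upper part alone 1 of 10 was called higher and 0 lower, against 11.1% and 8.84% of all genes. Against the lower part alone 4 of 10 were called higher and 0 lower, against 10.1% and 5.40% of all genes. Both nuclei libraries lay above all 6 whole-cell libraries for WRKY24, WRKY45, WRKY53 and WRKY76, 4 of 10 against 17.2% of all genes, and below them for 0 of 10, against 18.2%. The median log2 fold change was 1.24 for the 10 and -0.03 for all genes. Of the 4 calls, only that of WRKY45 remained without nuclei replicate 1, and those of WRKY24, WRKY45 and WRKY70 remained without nuclei replicate 2.

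The levels also varied among libraries of 1 group in a shared way. Lower replicate 3 held the highest lower value for 9 of the 10 WRKY genes, all but WRKY53, while it was the highest lower library for 32.7% of all genes tested. Upper replicate 3 was the highest upper library for 6 of 10, against 27.5% of all genes. Nuclei replicate 1 was above nuclei replicate 2 for 8 of 10, all but WRKY72 and WRKY76, against 45.8% of all genes. Replicate 2 was the lowest library in both parts for WRKY45, WRKY62 and WRKY76, 3 of 10, which is near the 21.7% of all genes. The range over the 6 whole-cell libraries was 1.50-fold for WRKY45, 2.57-fold for WRKY13, 2.80-fold for WRKY71 and 2.94-fold for WRKY53. It was 58.9-fold for WRKY62, but that value divides by 2 counts in lower replicate 2 (0.0506 CPM), too few for a firm ratio.

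The 2 group IIa genes on chromosome 9, WRKY62 and WRKY76, are next to each other with 0 genes listed between them in the RefSeq gene table of the assembly ASM3414082v1, which is another assembly than that of the counts. Both were lowest in replicate 2 of each part and about even between the parts in pair 3, with ratios of upper over lower of 1.03 and 1.04. Neither trait was particular to them. Replicate 2 was lowest in both parts for WRKY45 too, and for 21.7% of all genes. In pair 3 WRKY71 and WRKY72 were also near even, at 0.902 and 0.926, and lower replicate 3 resembled the upper libraries across genes. In pair 1 the ratios were 2.20 for WRKY62 and 3.22 for WRKY76; in pair 2 WRKY62 had only 4 counts in the upper and 2 in the lower library, too few for a ratio. They differed in nuclei, where WRKY76 was called and WRKY62 was not, a difference that was itself not tested.

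Loci with like profiles were sought over the 6 whole-cell libraries, among 27620 other loci with a mean of at least 1 CPM. WRKY53 was taken because it had the highest mean CPM of the 10, a ranking not scaled by gene length. Its profile was most like those of Os03g0743650 (Pearson r = 0.994 on log2 CPM, 6 libraries) and Os03g0263950 (r = 0.990), both on chromosome 3. The profile of WRKY70 was most like those of Os03g0215700 on chromosome 3 and Os09g0416250 on chromosome 9 (r = 0.998 for both). These loci head a longer list: of the 27620 loci, 123 had r above 0.95 with WRKY53 and 432 with WRKY70. With only 6 libraries in 2 parts and 3 pairs, and the best of 27620 loci taken, a high r is weak evidence of a link. The table of gene names used here pairs none of these identifiers with a name.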

How the data were processed

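PolyA RNA of nuclei and of upper and lower pistil parts was measured. The authors deposited 1 table of raw counts per feature and library, unnormalized; per the submitters' processing notes STAR, featureCounts, DESeq2 and the build IRGSP-1.0 were used, and whether counting used strand is not stated there. Each of the 8 columns was assigned by its name (0 unused). Counts were tested with edgeR 4.0.16 in R 4.3.3 (quasi-likelihood, TMM, edgeR's low-count filter), with Benjamini-Hochberg adjustment over all genes tested; calls required both an adjusted p under 0.05 and a log2 change of at least 1 either way. All 10 WRKY genes passed both filters. Upper against lower used 6 libraries and nuclei against parts all 8. Alternatives were DESeq2 1.42.0, library-total scaling, no filter, a replicate block and single libraries left out; leaving out pairs was added after the data were seen. The fits were also run on simulated counts without a shared replicate effect or an outlying library, so the simulation does not cover these.

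Same-numbered upper and lower libraries deviated from their group means together across genes (r = 0.362, 0.679 and 0.660 for replicates 1, 2 and 3). Values for unlike numbers were at most 0.0539. Deviations from a mean of 3 libraries sum to 0, so these low values follow in part from the others and add no support. The numbers were taken as pairs for the ratios and for the replicate block, which is an alternative to the main fit. Nuclei have 2 replicates and were not taken as paired. Intervals on counts of 0 (3 counts) cover counting error only.

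Members and lists were chosen with earlier results of these data known. All 10 members are named; like loci are the 2 of highest correlation with the member of highest mean CPM and with that of largest upper-lower change. The gene name table matched 0 WRKY genes by RAP identifier and lists 4 of the 10 names (WRKY24, WRKY62, WRKY71 and WRKY76), so no list of further WRKY genes was made, the tissue was not checked by named markers, and no sequences are shown.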

Additional observations from a re-analysis of the deposited data

How the results depend on the processing

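Between the parts, the count of WRKY genes called was 0. It was 1 with DESeq2 (4.11% of all genes higher) and 1 with the replicate block (5.12%). Under the block without pair 1 it was 1 (all genes: 7.56% higher, 4.18% lower). Under the block without pair 3 it was 2 of the 9 tested (7.62% and 2.14%), as WRKY72 did not pass the low-count filter. The count was 0 to 1 when single libraries were left out (1 without lower replicate 3, 3.01%). Library-total scaling, no filter, and the block without pair 2 gave 0. There 0.670%, 0.843% and 0.325% of all genes were called higher, and at most 0.0101% lower. WRKY70 kept a positive log2 fold change throughout, from 2.77 to 3.91 with single libraries left out. For nuclei against the parts the count was 4; it was 1 against the upper part alone and 1 to 4 with single libraries left out, with 1 without nuclei replicate 1 (all genes: 6.07% higher, 1.26% lower). With the replicate block, for which no pairing of nuclei is known, it was 6, adding WRKY62 and WRKY71 (log2 fold changes 3.64 and 1.23), where 16.0% of all genes were called higher and 13.8% lower. Deviations of the nuclei replicates correlated with those of replicates 1 and 2 at 0.0820 (upper) and 0.380 (lower).

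Signs turned in uncalled genes alone. Between the parts, WRKY28 was -0.24 with library-total scaling, -0.10 with the block, -0.81 under the block without pair 1, and -0.63 to 0.55 with single libraries left out. WRKY62 ran from -0.13 to 1.70 with single libraries left out, WRKY71 was -0.017 with library-total scaling, and WRKY72 was -0.14 under the block without pair 1. For nuclei, WRKY28 ran from -0.22 to 0.82 and WRKY72 from -7.65 (nuclei replicate 1 alone, with 0 counts, so no bound) to 0.23, with 0.60 under the block. The causes were not tested. WRKY62 and WRKY72 had under 10 counts in some libraries, replicate 2 of both parts among them, which had the highest totals.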
